A study of Mus with 10 samples.

Results

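Skin of mice in which 7 days lay between the end of PUVA and the next treatment was compared with control skin, over 4 arrays of the 7-day group and 2 control arrays of the 10 arrays in the series. These 6 arrays were taken by their sample titles, and all 22180 genes that the platform annotation names by 1 symbol were compared. RNA from skin of female BALB/c mice aged 7 to 8 weeks had been hybridised to Affymetrix gene arrays. Per the labels' protocols, psoralen was put on the skin of the PUVA groups, which was then exposed to UVA at 0.25 J/cm2, 2 times a week for 2 weeks, and the other 4 arrays of the series had a gap of 3 days. The protocol text names imiquimod, a Toll-like receptor agonist used to inflame mouse skin in a way that resembles psoriasis, as what followed the gap, and names no gap for controls. Whether imiquimod had been given before the skin was taken, and what the control mice received, is not stated, so groups are named here by their labels only. Nothing in the labels says whether arrays of a group came from separate animals, so errors measure the spread between these arrays, which may be technical.

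PUVA combines psoralen, which slips between DNA bases, with UVA light, which makes psoralen bind and crosslink the DNA. It is used against psoriasis and stops cells that must copy their DNA. Hair follicles pass through growth, regression and rest: in growth, dividing matrix cells at the follicle base make the hair shaft and the inner root sheath that moulds it, while melanocytes hand pigment to the shaft in pigmented strains. Type I interferons act on most skin cells through one receptor and switch on a shared set of antiviral genes.

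Values are log2 intensities, so a difference of 1 is a factor of 2, and differences are the mean of the 4 7-day arrays minus control. The 9 measured skin identity genes, among them the keratins Krt14, Krt1 and Krt10 and the collagen Col1a1, had mean values of 11.63 and 11.89 on the controls and 11.72 to 11.92 on the 7-day arrays. The 2 controls differed from each other by over 1 in 165 genes, of which 134 were higher in control replicate 2. The 7-day mean lay over 1 from control replicate 1 in 18 genes and over 1 from control replicate 2 in 167. Over all probe sets, control replicate 1 correlated with the 7-day arrays at 0.99190 to 0.99340 and with control replicate 2 at 0.99057. Every comparison below is therefore given against each control.

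No gene of 22180 passed an adjusted p of 0.05 against both controls together (limma, 0.0% called, smallest adjusted p = 0.392), and the named genes had adjusted p from 0.444 to 0.991. At an unadjusted p under 0.05, limma gave 713 genes higher (3.21%) and 594 lower (2.68%), 1307 in all where 1109 would be expected with no difference in any gene. All 4 7-day arrays lay above both controls in 1898 genes (8.56%) and below both in 1298 (5.85%). The split between higher and lower depended on scaling and on whether dim genes were kept. Of the genes beyond both controls 59.4% lay above, against 70.4% after centring on array medians and 49.9% after quantile normalization. At an unadjusted p under 0.05 the share higher was 54.6%, with 66.9% and 44.4% after these steps. With the lowest 30% of genes by mean left out, the 2 shares were 53.9% and 47.4%. The distance to the nearer control was over 0.5 in 53 of the genes above and in 24 of those below. It was over 1 in 1 gene above, the immediate early gene Fos, and in 6 below, the inner root sheath genes Krt71, Krt27, Tchh, Krt25, Krt73 and Krt28. Over all genes the median difference was 0.01 against control replicate 1 and 0.02 against control replicate 2, which the medians of gene lists below can be set beside.

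With control replicate 1 as the only control, 1 gene passed in limma (0.00451% of genes), and with control replicate 2 as the only control 217 passed (0.978%), 21 higher and 196 lower. A lone control is assumed in these fits to vary like the PUVA arrays, so their p-values leave out the spread between controls. The gene past the threshold against control replicate 1 was Krt25, a type I keratin of the inner root sheath, and it also passed against control replicate 2. Of the 217 genes, 120 lay below both controls and 12 above both. In the others the PUVA arrays did not all lie beyond both controls on the same side. The 3 lists of hair shaft, inner root sheath and keratin-associated proteins held 33 of the 217.

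**Figure D1:**
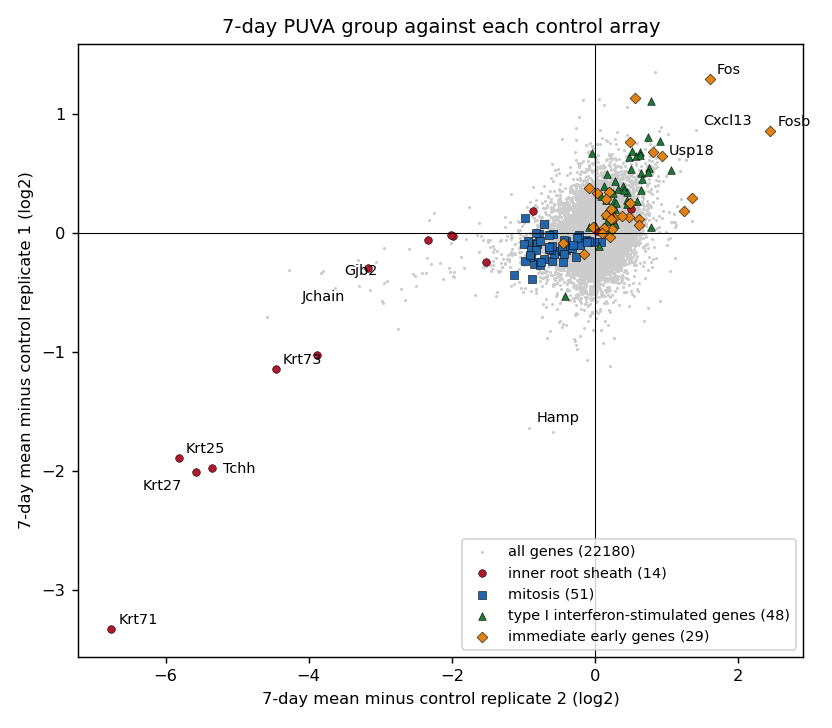
Mean of the 4 7-day arrays minus control replicate 2 (x axis, log2) against the same mean minus control replicate 1 (y axis, log2), with 1 point for each of 22180 genes and 4 gene lists in colour. Inner root sheath genes run far down along both axes, while mitosis genes spread mainly along the x axis and interferon-stimulated and immediate early genes lie mostly in the upper right.

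Genes of the inner root sheath lay furthest below control. Of 14 measured members 8 lay below both controls (57.1%, against 5.85% of all genes), 1 above both, and the list's median difference was -0.26 against control replicate 1 and -2.75 against control replicate 2. None passed the adjusted threshold against both controls, and 10 were lower at an unadjusted p under 0.05.

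Krt71, a type II keratin of the sheath, had 8.04 and 11.47 on controls 1 and 2 and 4.92, 3.85, 5.14 and 4.93 on the 7-day arrays. The 7-day arrays lay over 3 below the nearer control on average (-3.33), and the difference from the mean of both was -5.04 ± 0.75 (SE), with an adjusted p of 0.444 in limma. Replicate 2 was the lowest of the 4 and lay below the lower quartile of its array (4.23). Krt25 had 6.62 and 10.54 on the controls and 4.80, 4.62, 4.63 and 4.85 on the 7-day arrays. The 7-day arrays differed among themselves by little beside the gap to either control. Krt25 differed by -1.89 from control replicate 1 and by -5.82 from control replicate 2, lower on 4 of 4 arrays in each case. Against both controls together its difference was -3.86 ± 0.75 (SE), with an adjusted p of 0.653 (limma).

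Krt27, another type I keratin of the sheath, stood at 6.27 and 9.83 on the controls and at 4.18, 4.54, 4.15 and 4.18 on the 7-day arrays. On 3 of those it was under the array's lower quartile, so its difference of -2.01 from control replicate 1 may be a lower bound. Tchh, the trichohyalin that hardens the sheath, had 7.14 and 10.51 on the controls and 5.01, 5.26, 5.0 and 5.39 on the 7-day arrays. Krt73 and Krt28 were likewise below both controls, with differences of -1.15 and -1.02 from the nearer one. Padi3, an enzyme that modifies trichohyalin, and Krt72 lay near control replicate 1, with -1.20 and -1.0 against the control mean. Gata3, a transcription factor of the sheath also made elsewhere in the epidermis, had a difference of 0.02. Tgm3, a crosslinking enzyme of the sheath and of the cornified layer, lay above both controls with 0.35 ± 0.17.

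The hair shaft lists lay lower too, closer to control replicate 1. Hair shaft keratins had 5 of 14 members below both controls (35.7%) and 0 above, with medians of -0.13 and -0.67 against controls 1 and 2. Krt33b had 5.62 and 6.77 on the controls and 4.91, 5.05, 5.23 and 5.20 on the 7-day arrays, a difference of -1.10 ± 0.26. Krt35, Krt34 and Krt83 had -1.17, -0.64 and -0.56. Against control replicate 1 these were -0.29, -0.25 and -0.33, and against control replicate 2 they were -2.05, -1.04 and -0.80. Krt36 was a member in the other direction, at 0.23 with overlapping groups. Of 36 keratin-associated proteins, which fill the shaft between keratin filaments, 18 lay below both controls (50%) and 0 above, with medians of -0.19 and -1.13. Many of these genes were dim: Krtap8-1, at 3.88 and 7.75 on the controls, had 3.02 to 3.33 on the 7-day arrays, and Krtap11-1, at 4.39 and 5.26, had 3.78 to 3.98, all under the lower quartile of their arrays. Differences of such dim genes may be lower bounds.

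Regulators of the hair cycle were split against control replicate 1, with 18 members above it and 19 below. Against control replicate 2, 8 lay above and 29 below. Of 37 members 7 lay below both controls (18.9%) and 1 above, and the list's median was 0.00 against control replicate 1 and -0.34 against control replicate 2. Below both were Shh, the hedgehog ligand that drives follicle growth, at -0.78 ± 0.22, its target Gli1 at -0.75, the matrix transcription factors Msx2 at -0.62 and Hoxc13 at -0.68, Cux1 at -0.50, Elf5 at -0.54 and the dermal papilla protease Corin at -0.82. Shh had 4.14 and 4.84 on the controls and 3.61 to 3.84 on the 7-day arrays, under the lower quartile. The hedgehog receptor gene Ptch1 (-0.86) and the Wnt pathway factor Lef1 (-0.81) overlapped control replicate 1. Lef1 had -0.06 against control replicate 1 and -1.57 against control replicate 2. In the same order Gli1 had -0.21 and -1.28, and Msx2 -0.20 and -1.05. Igf1, a growth factor of the dermal papilla, lay above both controls at 0.24. Fgf18, a signal of the resting follicle, was at 8.50 to 8.88 against 8.68 and 8.11 on the controls. Follicle stem cell and club hair genes had 2 of 16 members below both controls and 1 above, so their medians of 0.01 and -0.12 go with no common direction.

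Melanocyte genes had 6 of 18 members below both controls (33.3%) and 0 above, with medians of -0.05 and -0.51. Tyrp1, a pigment enzyme, stood at 6.83 and 8.92 on the controls and at 6.09, 6.46, 6.32 and 6.2 on the 7-day arrays. Pmel, which builds the melanosome's fibrils, had 6.45 and 8.18 against 5.92 to 6.27. Slc45a2, a melanosome transporter, had a difference of -0.74 ± 0.22, with -0.28 against control replicate 1 and -1.19 against control replicate 2. In bulk skin, fewer cells of a type and less RNA per cell cannot be told apart, here and in every list below.

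**Figure D2:**
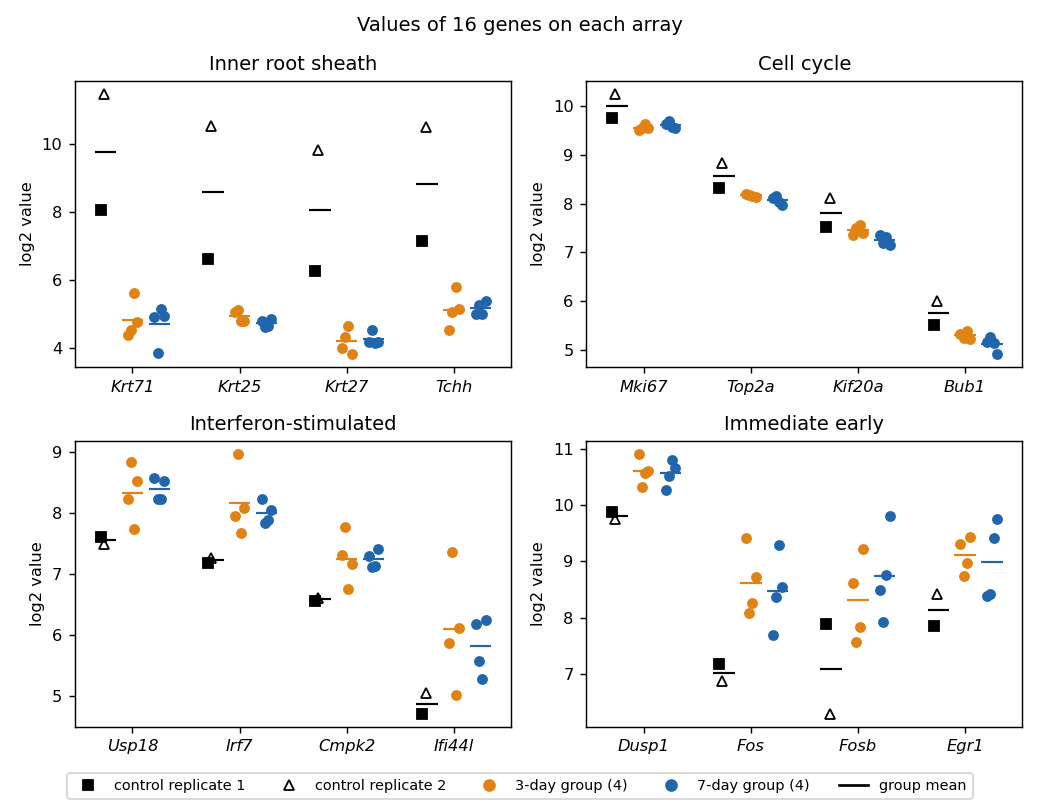
Log2 value (y axis) of 16 genes on each of the 10 arrays: control replicate 1 (square), control replicate 2 (open triangle), 3-day group (orange) and 7-day group (blue), with short lines at group means. Krt71, Krt25, Krt27 and Tchh lie below both controls on all 7-day arrays, and the 2 controls are far apart in that panel and close together for Usp18, Irf7 and Cmpk2.

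Genes of cell division lay below control on all 7-day arrays in most members, with most of the distance against control replicate 2. Of 51 mitosis genes 33 lay below both controls (64.7%, against 5.85% of all genes) and 0 above. The median was -0.12 against control replicate 1 and -0.61 against control replicate 2. At an unadjusted p under 0.05, 35 were lower and 0 higher, against 2 lower without control replicate 2, and none passed the adjusted threshold. The count below both controls depended on scaling. It was 28 after quantile normalization (54.9%, against 7.24% of all genes) and 23 after centring on array medians (45.1%, against 4.32%). Against control replicate 2 alone 24 passed in limma, against control replicate 1 alone none did.

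Bub1, a kinase of the mitotic checkpoint, had 5.51 and 6.01 on the controls and 5.17, 5.27, 5.15 and 4.92 on the 7-day arrays, a difference of -0.63 ± 0.14 (SE). Kif20a, a motor protein of cell separation, had 7.52 and 8.12 against 7.37, 7.20, 7.31 and 7.16, a difference of -0.56 ± 0.14. Top2a, the topoisomerase that untangles replicated DNA, had 8.32 and 8.82 against 7.97 to 8.16. In each of these the 7-day arrays lay close below control replicate 1. The proliferation marker Mki67 stood at 9.74 and 10.24 on the controls and at 9.55 to 9.69 on the 7-day arrays, a difference of -0.13 from the nearer control. Birc5, which encodes survivin, had -0.74, with -0.35 against control replicate 1 and -1.13 against control replicate 2. Anln, Ckap2l and Kif23 had 0.00, -0.04 and -0.07 and overlapped the controls.

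DNA replication genes had 15 of 45 members below both controls (33.3%) and 0 above, with medians of -0.07 and -0.66. The median over the controls together was -0.33, and 27 were lower at an unadjusted p under 0.05, against 1 without control replicate 2 and 41 without control replicate 1. Gins1, a part of the replicative helicase, had 5.28 and 6.04 on the controls and 5.13, 5.05, 4.86 and 4.89 on the 7-day arrays. Uhrf1, which keeps DNA methylation through replication, had -0.84 ± 0.23, and Dtl, a ligase part that removes licensing factors, -0.87 ± 0.24. Against control replicate 1 these were -0.32 and -0.30, and against control replicate 2 they were -1.36 and -1.44. Of the helicase subunits of the licensing complex, Mcm7 lay below both controls, and Mcm2 to Mcm6 overlapped control replicate 1. Mcm2, at 6.88 and 8.07 on the controls, had 7.08, 6.96, 6.56 and 6.72. Replication genes thus lay nearer to control replicate 1 than to control replicate 2.

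Repair genes were less uniform. Of 37 genes for crosslink and excision repair, 4 lay below both controls (10.8%) and 1 above, with medians of -0.01 and -0.16, and 5 were lower at an unadjusted p under 0.05. Brca2, which loads the recombinase at breaks, had 6.72 and 7.18 on the controls and 6.27 to 6.47 on the 7-day arrays, a difference of -0.55 ± 0.12. Fancd2, a central protein of crosslink repair, had -0.43 ± 0.16, with -0.14 against control replicate 1 and -0.71 against control replicate 2. Rev3l, a polymerase subunit that copies past damage, was the member above both.

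Interferon-stimulated genes had the highest median of the 42 lists, and here the controls lay close together. Of 48 members 29 lay above both controls (60.4%, against 8.56% of all genes) and 1 below. The median was 0.34 against control replicate 1 and 0.29 against control replicate 2. The count above both was 29 as well after quantile normalization and after centring on array medians, against 7.2% and 10.3% of all genes. No member passed the adjusted threshold, 7 were higher at an unadjusted p under 0.05, and 0 lower. That count was 25 higher and 1 lower in a fit of the 7-day and control arrays alone, 3 without control replicate 1, 4 without control replicate 2 and 11 without 7-day replicate 3. The list's mean was 7.04 and 7.02 on the controls and 7.57, 7.26, 7.20 and 7.51 on 7-day replicates 1 to 4, so replicates 1 and 4 stood higher than 2 and 3. Members of a list that answers to a shared signal are not independent of each other.

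Usp18, a protease that limits interferon signalling, stood at 7.61 and 7.48 on the controls and at 8.57, 8.22, 8.23 and 8.53 on the 7-day arrays, a difference of 0.84 ± 0.24 (SE). Irf7, a transcription factor that amplifies the response, had 7.18 and 7.26 against 8.22, 7.83, 7.88 and 8.05. Cmpk2, a mitochondrial nucleotide kinase, had 6.55 and 6.61 against 7.30, 7.11, 7.12 and 7.41, a difference of 0.66 ± 0.21. In these 3 genes the controls lay close together and every 7-day array lay clear of the higher one. Ifi44l had the widest difference, 0.94 ± 0.51, and also a wide spread, at 6.18, 5.57, 5.28 and 6.24 against 4.71 and 5.04.

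Other members above both controls were the RNA sensors Ifih1 (0.24) and Ddx58 (0.16), which detect viral RNA, the RNA-degradation activators Oas2 (0.63), Oas3 (0.40) and Oasl2 (0.62), and Zbp1 (0.60), a nucleic acid sensor. Isg15, a ubiquitin-like modifier, had 5.89, 5.54, 5.11 and 5.46 against 4.99 and 4.85. Trim25, a ubiquitin ligase, had a small difference with a small error, 0.27 ± 0.08. Mx1, an antiviral GTPase, overlapped the controls, at 5.44, 4.14, 4.28 and 4.88 against 4.34 and 4.46. Ifit3b was the member below both, with -0.47, and was dim.

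Interferon genes themselves were dim or overlapped. Ifnb1 lay at 2.77 to 3.08 against 2.95 and 2.75, and Ifnk, the keratinocyte interferon, at 3.32 to 3.77 against 3.40 and 3.23, all under the lower quartiles. Of 21 interferon, receptor and sensor genes 1 lay above both controls, Tlr8, a receptor for single-stranded RNA, at 0.46 ± 0.25. Genes that respond mainly to interferon gamma lay near the background. Of 25 members 3 lay above both (12.0%) and 2 below. Cxcl10, a chemokine for T cells, was at 5.33 to 6.34 against 6.02 and 6.14. Gbp10, a GTPase of pathogen defence, lay above both with 0.55 ± 0.25. Antigen presentation genes had 2 of 25 above both (8.00%), H2-T24 among them at 0.66 ± 0.23.

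Immediate early genes, which respond within minutes to growth factors, stress and handling, lay above the control mean in 27 of 29 members. Of all 22180 genes 12194 did. Above both controls lay 8 (27.6%) and below both 0, with medians of 0.15 and 0.24, and 9 were higher at an unadjusted p under 0.05, against 4 without control replicate 2, 4 without 7-day replicate 4 and 6 without 7-day replicate 3. None passed the adjusted threshold. Fos, a subunit of the AP-1 transcription factor, had 7.18 and 6.87 on the controls and 7.70, 8.36, 9.29 and 8.54 on the 7-day arrays, a difference of 1.45 ± 0.42 (SE). Its 7-day mean lay 1.30 above the nearer control. Fosb had 8.49, 7.93, 8.76 and 9.81 against 7.89 and 6.30, so replicate 2 lay only just above control replicate 1.

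Dusp1, a phosphatase that switches off stress kinases, had 10.27, 10.51, 10.80 and 10.66 against 9.88 and 9.75, a difference of 0.75 ± 0.17. Ccn1, a matrix signal, had 0.79 ± 0.29 and Klf2, a factor of vessel lining and lymphocytes, 0.62. Egr1 overlapped control replicate 2, with 8.39, 8.42, 9.41 and 9.75 against 7.85 and 8.43. Jun, Myc and Egr2 had 0.16, -0.17 and 0.01. The list's spread between 7-day arrays was wide, with means of 8.45 to 9.02 against 8.41 and 8.25. Without 7-day replicate 2, 13 members lay above both controls (44.8%, against 12.6% of all genes in that setting). The time from death to freezing was not given in the sources used here, and its part in these values was not tested.

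**Figure D3:**
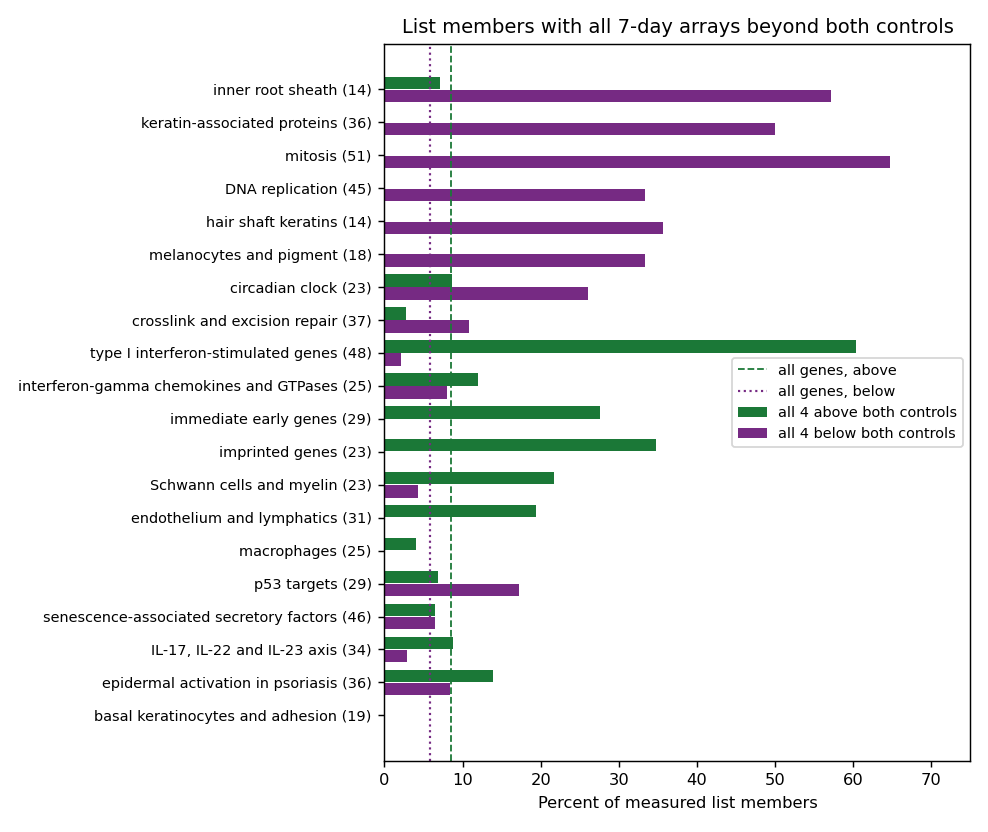
Percent of the measured members of 20 gene lists (x axis, members in parentheses) whose 4 7-day arrays all lay above both controls (green) or below both (purple), with the shares over all genes as dashed (8.56) and dotted (5.85) lines. Mitosis and inner root sheath genes have the longest purple bars, and interferon-stimulated genes the longest green bar.

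Clock genes, whose products form the daily feedback loop, lay on both sides of control. Of 23 members 6 lay below both controls (26.1%) and 2 above, and the medians were -0.12 and -0.12. Ciart, a repressor of the clock, had 7.11 and 7.62 on the controls and 6.62, 6.65, 6.59 and 6.59 on the 7-day arrays, a difference of -0.75 ± 0.16 (SE). Per3, a period protein, had 7.86 and 9.0 against 7.52 to 7.74, Tef, an output factor, had -0.46 ± 0.15, and Bhlhe41, a repressor, -0.50. Npas2, which pairs with the activator Arntl, was at 8.53 and 7.28 on the controls and at 8.55 to 8.85 on the 7-day arrays. Arntl had 9.74 and 8.65 against 9.60 to 9.80, and Dbp 9.34 and 10.78 against 8.89 to 9.63. The 2 controls thus differed by over 1 in Arntl, Npas2, Dbp and Per3, and the 7-day arrays lay near control replicate 1 in all 4. The hour of sampling was not given in the sources used here, and its part was not tested.

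Single genes outside these lists lay beyond both controls as well. Cxcl13, a chemokine that draws B cells, had 8.88 and 8.34 on the controls and 10.05, 9.41, 9.61 and 9.92 on the 7-day arrays, a difference of 1.14 ± 0.21 (SE). It was higher by 1.41 than control replicate 2 and by 0.87 than control replicate 1, on 4 of 4 arrays in each case, as its selection required. Against both controls together its adjusted p was 0.653 (limma). Car8, a carbonic anhydrase relative, had 5.65 and 5.47 against 6.06 to 6.86. Rtl3, a gene derived from a retrotransposon, had 0.91 ± 0.28, the cadherin Cdh9 0.76 ± 0.23 and Tmem100, a membrane protein of vessels and nerves, 0.91 ± 0.38.

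On the low side, Hamp, which encodes the iron hormone hepcidin, had 8.82 and 8.10 on the controls and 6.83, 6.2, 8.02 and 7.67 on the 7-day arrays. All 4 lay below both controls, replicate 3 only just, and the difference was -1.27 ± 0.44. Cyp17a1, a steroid hydroxylase, had 10.47 and 10.28 against 9.37 to 9.89, and Col12a1, a collagen on the surface of fibrils, 8.91 and 8.66 against 7.92 to 8.42, a difference of -0.62 ± 0.13. Cd209e, a lectin of the DC-SIGN family, had -0.62 ± 0.23. In these 4 genes the controls lay within 1 log2 unit of each other. Lrrc15, Crnn and Gjb2 had -1.77, -1.78 and -1.68, but there control replicate 2 stood over 2 above control replicate 1.

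The series' title names senescence. Cdkn1a, the p21 inhibitor of cell division, was at 10.80 to 10.99 on the 7-day arrays against 10.98 and 10.62, and Cdkn2a, the p16 locus, at 5.90 to 6.0 against 5.87 and 5.92. Neither group of arrays stood apart from the controls. Lmnb1, the lamin whose loss marks senescent cells, was at 7.49 to 7.70 against 7.64 and 8.30, thus around control replicate 1. Cdkn1c, an imprinted inhibitor of cell division, lay above both controls, with 5.94, 6.19, 6.19 and 6.42 against 5.76 and 5.68, a difference of 0.47 ± 0.20. Of 20 senescence inhibitors and lamins 3 lay above both controls (15%) and 1 below.

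Of 29 p53 targets, 2 lay above both controls (6.90%) and 5 below (17.2%), with medians of -0.06 and 0.05. Pmaip1, a death-promoting protein, was above both at 0.19 ± 0.10, and the death receptor gene Tnfrsf10b below both at -0.25 ± 0.09. Mdm2, the ligase that restrains p53, had -0.12 ± 0.08. Of 46 secretory factors of senescent cells, 3 lay above both controls (6.52%) and 3 below, near the background. Ereg, an EGF receptor ligand, was above both at 0.74 ± 0.28, but the controls were at 9.59 and 8.68 and the 7-day arrays at 9.69 to 10.09. Csf3, a neutrophil growth factor, had 0.36 ± 0.12, at 4.28 to 4.67 just above the lower quartile of the arrays.

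The imprinted list had 8 of 23 members above both controls (34.8%) and 0 below, with medians of 0.11 and 0.08. Plagl1, a zinc finger factor, had 6.97, 7.08, 7.00 and 6.97 against 6.69 and 6.60, a difference of 0.36 ± 0.12. Dlk1, a Notch-related protein of precursor cells, and Peg10 had 0.30 and 0.25. Igf2r, Airn and Phlda2 were among the others, with 0.10, 0.14 and 0.19. Rian, Zim1 and Mest of the same list overlapped the controls, at -0.07, -0.36 and -0.11. The imprinted gene Nnat overlapped too, at -1.11 against control replicate 1 and 0.21 against control replicate 2.

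Genes of psoriasis-like inflammation lay near the background. Of 34 members of the IL-17, IL-22 and IL-23 axis, 3 lay above both controls (8.82%) and 1 below. Il17a was dim, at 3.29 to 3.83 against 3.45 and 3.23, and Il23a was at 4.96 to 5.14 against 5.04 and 5.0. Nfkbiz, which mediates IL-17 responses in keratinocytes, lay above both with 8.42, 8.45, 8.72 and 8.59 against 8.34 and 7.98, and Il22ra2, a decoy that binds IL-22, with 0.41 ± 0.17. Of 36 genes of epidermal activation, 5 lay above both controls (13.9%) and 3 below. Krt16, a keratin of stressed epidermis, was at 5.68 to 6.32 against 6.22 and 5.66, and S100a8, a calprotectin subunit, at 3.79 to 4.07 against 4.23 and 3.89. Defb4, an antimicrobial peptide, and Hbegf, an EGF receptor ligand, were above both at 0.29 ± 0.10 and 0.38 ± 0.16.

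Structural genes of the epidermis and its lipids showed small differences. Basal keratinocyte genes had 0 of 19 members above both controls and 0 below, and cornified envelope genes 3 of 44 above (6.82%) and 2 below. Lce3c, a late envelope protein, had 7.98, 8.17, 7.94 and 8.04 against 7.74 and 7.55. Sebaceous lipid genes lay below the control mean in 26 of 29 members, as did 9985 of all 22180 genes. Only 4 were below both controls (13.8%) and 0 above. The medians were -0.21 and -0.03. Fabp5, a fatty acid carrier, had 9.79 to 10.05 against 10.38 and 10.13, and Fads2, a desaturase, -0.77 with control values of 7.80 and 9.07. Of 19 cholesterol synthesis genes 2 were below both and 0 above, among them Insig1, a brake on sterol synthesis, at -0.24 ± 0.11.

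Differences in marker lists of other cell types were small, and none of their members passed the adjusted threshold. Endothelial genes had 6 of 31 members above both controls (19.4%) and 0 below. Tek, the angiopoietin receptor, had 8.75, 8.57, 8.69 and 8.94 against 8.24 and 7.95, a difference of 0.65 ± 0.18, while the pan-endothelial Pecam1 and Cdh5 each had 0.07. Schwann cell genes had 5 of 23 above both (21.7%) and 1 below, with Ugt8a and Pllp, enzyme and membrane protein of myelin, at 0.60 ± 0.17 and 0.32 ± 0.09. Mast cell genes had 4 of 19 above both (21.1%), with Mrgprb1 at 0.33 ± 0.13. Macrophage genes lay above the control mean in 22 of 25, as did 12194 of all 22180 genes. Against control replicate 1, 22 lay above, and against control replicate 2, 15, where 11632 and 12260 of all genes did. The list's medians were 0.24 and 0.05. Only Folr2, the folate receptor of resident macrophages, was above both controls, with 10.61, 10.07, 10.40 and 10.77 against 9.76 and 9.94.

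T cell genes had 1 of 25 above both controls and 2 below, and neutrophil genes 1 of 21 each way. Adipocyte genes had 0 of 23 above and 1 below: Agpat2, an enzyme of triglyceride synthesis, with 9.56 to 9.68 against 9.91 and 10.10. Skeletal muscle genes, from the muscle sheet under mouse skin, had list means of 10.68 and 10.46 on the controls and 10.50 to 10.68 on the 7-day arrays. Of 15 B and plasma cell genes 1 lay below both controls (6.67%) and 0 above, with 6 above the control mean and 9 below. The member below both was Jchain, which joins antibody subunits. It had 4.53 and 7.19 on the controls and 3.95 to 4.15, under the lower quartiles, on the 7-day arrays. Tnfrsf17, a plasma cell receptor, had 5.47 to 5.96 against 5.32 and 5.69. Among the 19 measured immunoglobulin genes, Igkj1, Iglv1 and Ighg3 differed by -2.02, -1.12 and -1.17 from control replicate 2. From control replicate 1 they differed by -0.08, -0.09 and -0.44 in the same order. Igkj1 and Iglv1 overlapped the controls, and Ighg3 lay below both. These genes were named for their distance from control replicate 2, so most of the difference rests on that array. The part of antibody-producing cells in the other lists was not tested.

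**Figure D4:**
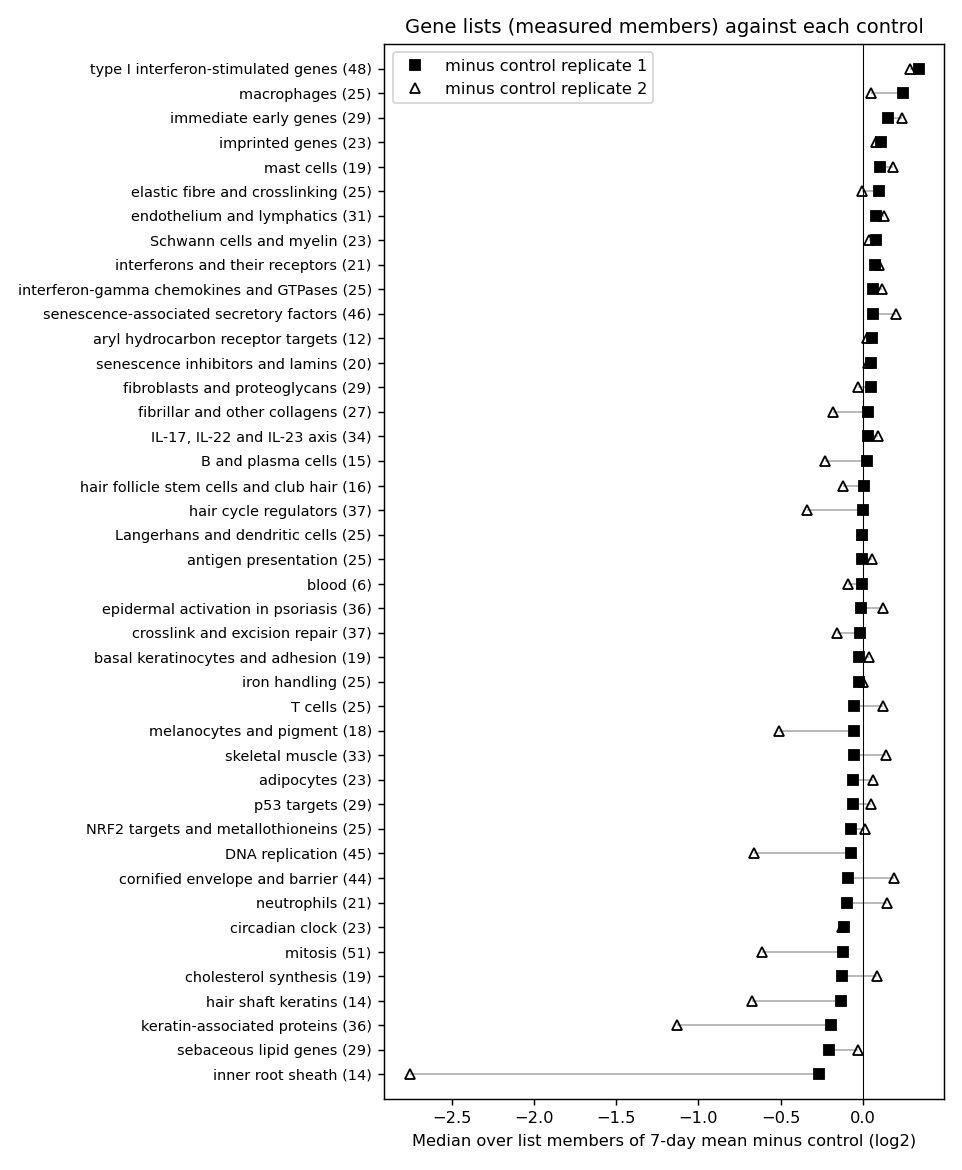
Median over list members of the 7-day mean minus control replicate 1 (square) and minus control replicate 2 (open triangle), on a log2 scale, for 42 gene lists with the number of measured members in parentheses. The interferon-stimulated list has 0.34 and 0.29, while inner root sheath, keratin-associated protein, replication and mitosis lists have long lines, with values near control replicate 1 and far from control replicate 2.

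The 3-day group was set beside these values to see where the 7-day group differs. Both groups use the same 2 controls, so of tests with the 3-day group only the direct difference between both groups is reported here. Over all genes, 2 passed an adjusted p of 0.05 (0.00902%, limma). Of the named genes only Hamp did, higher in the 7-day group by 3.59 ± 0.36 (SE), with an adjusted p of 0.022 (limma). Its 3-day values were 4.09, 3.44, 3.41 and 3.42, all below the lowest 7-day value. They also lay under the lower quartiles of their arrays, so the size of the difference rests on dim values. No member of the inner root sheath, mitosis, replication, interferon-stimulated or immediate early lists passed. The median 7-day minus 3-day difference was 0.03 in the inner root sheath list, -0.08 in mitosis, -0.17 among interferon-stimulated genes and 0.01 among immediate early genes. At an unadjusted p under 0.05, 983 genes were lower in the 7-day group (4.43%) and 1183 higher (5.33%), and the median over all genes was 0.01. Several lists of connective tissue and other cells lay lower in the 7-day group. The median was -0.38 in 27 collagens and -0.42 in 25 elastic fibre genes, with 15 and 11 members lower at an unadjusted p under 0.05 and 0 higher. Among 23 imprinted genes the median was -0.19, with 10 lower and 1 higher. Fibroblast genes had a median of -0.27 with 7 of 29 lower, macrophage genes -0.34 with 4 of 25 lower, and Schwann cell genes -0.16 with 8 of 23 lower and 1 higher. Other lists had more members higher than lower. The IL-17, IL-22 and IL-23 axis had 9 of 34 higher and 2 lower, and epidermal activation genes 6 of 36 and 1. Cornified envelope genes had 7 of 44 higher and adipocyte genes 5 of 23, both with 0 lower. Medians of these lists were small, at 0.055, 0.044, 0.146 and 0.078 in that order. Against control, the 7-day group had 2 of 27 collagens above both controls and 2 below. Col1a1 was at 10.99, 10.51, 11.52 and 11.68 against 10.38 and 11.63, and the elastin gene Eln at 8.32 to 8.57 against 8.44 and 8.02.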

How the data were processed

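RNA from skin was measured on 10 Affymetrix arrays, with labelling by the WT PLUS kit per the labels' protocols. The table the authors deposited holds 41345 probe sets, whose values were taken to be log2 intensities because of their range. Their log base, normalization and software were not given in the sources used here, and the arrays' medians lay between 5.83 and 5.86. Probe sets with 1 symbol in the platform annotation were kept (23521 of 25335 with a listed gene), and for 1082 genes with several the probe set with the highest mean, with no filter on dim signals. Of 1183 symbols in 43 lists 1071 were matched, 15 through a synonym.

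With limma 3.58.1 (R 4.3.3) a mean was fitted for each of the 3 groups by lmFit, moderated by eBayes (7 residual and 3.514 prior degrees of freedom) and tested on both sides, with Benjamini-Hochberg adjustment over all 22180 genes. The 3 groups share 1 spread per gene, so errors against the 2 controls are too small where these differ. An exact permutation test of 2 against 4 arrays has 15 assignments, so its one-sided p, when doubled, cannot go below 0.133. Genes named were the 15 largest distances beyond both controls in each direction, leaving out gene models, small RNAs, receptor families and immunoglobulin segments, up to 4 members of each list by smallest p, a fixed set, and the 6 genes each way with the largest difference between controls. Other members named in the text were chosen after their values were seen. Lists and members were chosen with earlier results of these data known. Lists were described by counts and medians, with no test of their own. The fit was tested on simulated data. Promoter motifs planned for the interferon, cell cycle and clock lists were not analysed here. Alternatives are in the closing section.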

Additional observations from a re-analysis of the deposited data

Results flagged for a closer look

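Among 94 list means and named genes of the 7-day group, 4 had an array far from the other 3 by Dixon's criterion, where chance gives about 1 in 20. The mean of the keratin-associated proteins was 4.10 on replicate 3 and 4.17 to 4.18 on the others. Krt27 was 4.54 on replicate 2 and 4.15 to 4.18 on the others, Per3 was 7.52 on replicate 1 and 7.72 to 7.74 on the others, and Eln was 8.57 on replicate 4 and 8.32 to 8.35 on the others.

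Hamp differed between the gap lengths: its 7-day minus 3-day difference was 3.59 ± 0.36 (SE), with an adjusted p of 0.022 (limma). Its 3-day values all lay under the lower quartiles of their arrays.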

How the results depend on the processing

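The count of genes past the adjusted p was 0 in each of the 7 alternatives that kept all 6 arrays, with smallest adjusted p from 0.321 to 0.647 (limma). With the lowest 30% of genes left out, 442 of 15526 genes were higher at an unadjusted p under 0.05 and 490 lower. Above both controls lay 1208 of them (7.78%) and below both 1033 (6.65%). Leaving out 1 array at a time gave 0 to 217 genes past the adjusted p, 1 without control replicate 2 and 217 without control replicate 1. In the same fits 338 to 1002 genes were higher and 222 to 1061 lower at an unadjusted p, 2645 to 6051 lay above every control left and 1703 to 4473 below. Fewer arrays raise counts of genes beyond all controls by construction. List medians ran from -2.75 to -0.26 for the inner root sheath, -0.61 to -0.12 for mitosis, -0.66 to -0.07 for replication and 0.29 to 0.40 for interferon-stimulated genes. Of 42 list medians 19 changed sign under some alternative and have no direction here, 6 with a filter, centring or weights (T cell, blood, basal keratinocyte, dendritic cell, adipocyte and iron). Without 1 of the controls 17 did, among them the hair stem cell, p53, antigen presentation, cornified envelope, epidermal activation, collagen, elastic fibre, fibroblast, B cell, neutrophil, muscle, cholesterol and NRF2 lists. No paired analysis was possible because the numbers in the sample titles pair no arrays across groups. No detection limit was derived for dim genes, since background signals were not used here.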
